A study of Mus musculus with 116 samples.

Results

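The 8 genes described here, out of 53379 genes in the count tables, encode the carriers that load transmitters or zinc into synaptic vesicles, together with the carrier that returns choline to the nerve terminal. They are Slc30a3 for zinc, Slc17a6, Slc17a7 and Slc17a8 for glutamate, Slc32a1 for GABA and glycine, Slc18a2 for monoamines, Slc18a3 for acetylcholine and Slc5a7 for choline. The genes were chosen by name with their levels in green libraries already known, so their green values are given as a description and without a test. Tests were made in red and yellow libraries, whose values were not used to choose the genes.

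Vesicular carriers load the molecule to be stored, powered by a pump that drives protons into the vesicle. Which carrier a neuron makes therefore largely sets which transmitter it can release. Projection neurons of the neocortex release glutamate, and in rodents Slc17a6 (VGLUT2) is the more widespread vesicular glutamate carrier in the immature cortex whereas Slc17a7 (VGLUT1) prevails in the mature one. Slc30a3 (ZnT3) puts zinc into a subset of glutamatergic vesicles of the mature forebrain. Slc32a1 (VGAT) belongs to inhibitory neurons, which reach the cortex from the ventral forebrain, and cholinergic and monoaminergic carriers belong mostly to neurons outside the cortex. Polycomb repressive complex 2 (PRC2), of which Eed is a core subunit, methylates lysine 27 of histone H3 and keeps many genes of other lineages silent.

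Bulk Smart-Seq2 RNA-seq was made from cells sorted by color from mouse cortex, with each library from a pool of cortices. Cells were marked with mosaic analysis with double markers (MADM), in which Cre-driven exchange between chromosomes 7 leaves green, red or yellow cells, and Emx1-Cre, active in progenitors of the dorsal forebrain, was the driver in all groups. Of 116 libraries, 55 of 68 green and 37 of 48 red or yellow ones held at least 1000000 uniquely aligned reads that were at least 60% of all reads, and these were used. The labels name CD1 as the strain, whereas the methods describe a mixed background.

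In control-MADM (MADM7-GT/TG;Emx1-cre) cells of every color were Eed +/+. In Eed-MADM green cells were Eed -/-, yellow cells +/- and red cells +/+, within a tissue that was otherwise heterozygous. In cKO-Eed-MADM all cells that had expressed Cre were Eed -/-, whatever their color. Cells were collected at P0 and at the embryonic ages E12.5, E13.5 and E16.5, which the labels give as whole days. In order of age, control-MADM had 5, 2, 3 and 5 green libraries, Eed-MADM 8, 2, 5 and 9, and cKO-Eed-MADM 4 at each age. At E13.5 and P0 there were 2 red or yellow control-MADM and 4 Eed-MADM libraries, and 4 control-MADM and 4 Eed-MADM libraries, respectively, with 4 and 3 of cKO-Eed-MADM. At E16.5 control-MADM had 3, cKO-Eed-MADM 2 and Eed-MADM 1, and at E12.5 they had 4, 1 and 5. E12.5 cells alone were sorted into lysis buffer, so E12.5 and this way of collection cannot be told apart. Green cells carry 2 paternal and red cells 2 maternal copies of chromosome 7 in every paradigm, and Slc17a6 and Slc17a7 lie on that chromosome. The labels do not tie colors to cortices, so red, yellow and green libraries may come from the same pools, and p-values over red and yellow libraries may then be too small.

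Reads on genes ranged from 865832 to 2359317 per green library at E12.5 and from 2784557 to 7249098 at the later ages, and from 1014557 to 5635064 in red and yellow libraries. Levels (CPM) are the reads of a gene per 1000000 reads on genes, scaled by TMM over the 92 libraries used, and a mean is followed by its SD over libraries. Eed was lower in green cKO-Eed-MADM than in green control-MADM in every library at each age, with ratios of means of 0.393, 0.327, 0.457 and 0.396 from E12.5 to P0. The library labelled P0 cKO-Eed-MADM red replicate 1 held 33.3 CPM of Eed, within the 25.4 to 36.5 CPM of the red and yellow P0 controls, while the other two of its group held 11.3 and 5.51 CPM. Results that rest on it are given with and without it. Markers of cortical projection neurons summed to 3798 to 4176 CPM in green E16.5 controls and to 276 to 595 CPM in green P0 cKO-Eed-MADM, where the 1082 to 2311 CPM of the controls did not overlap with them. In bulk RNA, fewer cells of a type and less RNA per cell cannot be told apart.

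Because PRC2 acts preferentially at starts of genes rich in CG dinucleotides, the promoters of the 3 genes that rose in the red and yellow test at E16.5 are shown, as the 250 bases upstream of the start in RefSeq (GRCm38.p6), 5′ to 3′ on the strand of the gene, with each CG in capitals. Slc30a3 has 2 annotated starts, of which the distal one is listed first.
Slc30a3, chr5:31108245-31108494, minus strand: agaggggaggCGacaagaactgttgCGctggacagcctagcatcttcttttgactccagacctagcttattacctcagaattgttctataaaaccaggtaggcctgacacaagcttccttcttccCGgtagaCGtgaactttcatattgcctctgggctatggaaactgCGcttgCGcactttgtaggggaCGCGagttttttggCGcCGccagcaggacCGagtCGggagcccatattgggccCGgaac
Slc30a3, chr5:31093528-31093777, minus strand: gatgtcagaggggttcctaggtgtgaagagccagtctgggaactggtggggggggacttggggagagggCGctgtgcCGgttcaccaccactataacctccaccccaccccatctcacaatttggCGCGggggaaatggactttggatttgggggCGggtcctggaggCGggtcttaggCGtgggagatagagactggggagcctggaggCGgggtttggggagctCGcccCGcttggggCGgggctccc
Slc32a1, chr2:158610508-158610757, plus strand: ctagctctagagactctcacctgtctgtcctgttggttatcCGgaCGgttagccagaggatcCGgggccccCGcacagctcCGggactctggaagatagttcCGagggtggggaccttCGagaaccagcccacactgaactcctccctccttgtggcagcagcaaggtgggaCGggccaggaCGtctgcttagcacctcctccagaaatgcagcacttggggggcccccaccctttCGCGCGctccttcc
Slc18a3, chr14:32464851-32465100, minus strand: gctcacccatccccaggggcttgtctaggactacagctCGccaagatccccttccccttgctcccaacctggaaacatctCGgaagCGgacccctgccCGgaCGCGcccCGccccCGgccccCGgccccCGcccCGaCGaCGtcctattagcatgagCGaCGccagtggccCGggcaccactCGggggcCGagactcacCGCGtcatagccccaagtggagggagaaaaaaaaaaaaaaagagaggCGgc

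The distal and proximal Slc30a3 promoters held 13 and 11 CG, the Slc32a1 promoter 12 and the Slc18a3 promoter 21. All 8 genes had an entry, with 11 promoters in all. Over 32851 promoters of 27025 genes the median was 6 CG, and 31.5% of them held at least 13, 35.6% at least 11, 33.5% at least 12 and 16.3% at least 21. The promoters of Slc17a7 and Slc18a2 held 9 CG each, those of Slc17a6 held 7 and 3, those of Slc17a8 held 5 and 3, and that of Slc5a7 held 1, a number that 92.1% of promoters reached. A count of CG is a description of these letters and no measurement of methylation or of PRC2 at these sites.

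Slc30a3 (ENSMUSG00000029151.14; chromosome 5, 31086106 to 31108237, minus strand, mm10) had the highest mean per kilobase of exon among the 8 genes in green E16.5 cKO-Eed-MADM. In green libraries of E12.5 it was low and uneven. The 5 controls had 12.6, 0, 0, 7.83 and 0 CPM and the 4 cKO-Eed-MADM libraries 8.37, 0.964, 3.81 and 0 CPM. The 8 Eed-MADM libraries ranged from 0 to 11.6 CPM with a median of 1.07 CPM, so the 3 paradigms overlapped throughout. At E13.5 the controls had 0 and 4.04 CPM, Eed-MADM 3.54 and 0 CPM, and cKO-Eed-MADM 21.7, 6.86, 1.68 and 12 CPM. Of the 4 mutant libraries at this age, 3 lay above both controls and 1 between them.

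At E16.5 the paradigms separated. No read of Slc30a3 was counted in any of the 3 green controls. The 5 Eed-MADM libraries had 0.883, 3.11, 3.65, 8.91 and 6.7 CPM, a mean of 4.65 ± 3.16 CPM that was at least 23.3-fold higher than control-MADM when 3 counts over the control group were taken as the floor. The 4 cKO-Eed-MADM libraries had 122, 117, 89.6 and 131 CPM, a mean of 115 ± 18.1 CPM. No library of one paradigm fell in the range of another. The mean of cKO-Eed-MADM was at least 577-fold higher than that of control-MADM and 24.8 times that of Eed-MADM, although green cells were Eed -/- in both mutants.

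At P0 none of the 5 green controls held a read either. The 9 Eed-MADM libraries ranged from 9.3 to 40.7 CPM with a median of 14.9 CPM, and their mean of 17.8 ± 10.5 CPM was at least 169-fold higher than that of control-MADM. The cKO-Eed-MADM libraries had 105, 102, 70.6 and 37.7 CPM, with a mean of 78.8 ± 31.5 CPM that was at least 751-fold higher than control-MADM and 4.43 times Eed-MADM. The lowest cKO-Eed-MADM library lay below the highest Eed-MADM library alone, and the other 3 lay above all Eed-MADM libraries. In the fits of edgeR, the log2 difference between cKO-Eed-MADM and Eed-MADM was 4.64 ± 0.39 (SE) at E16.5 and 2.17 ± 0.35 at P0. Fitted differences against control-MADM were 12.22 ± 0.92 and 11.68 ± 0.83, which rest on a group with no reads and are not bounds. Just inside the depth limits, the E12.5 Eed-MADM replicate 9 with 60.01% uniquely aligned reads had 16 reads of Slc30a3, and just outside, P0 control-MADM replicate 7 with 358759 aligned reads had 0.

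**Figure D1:**
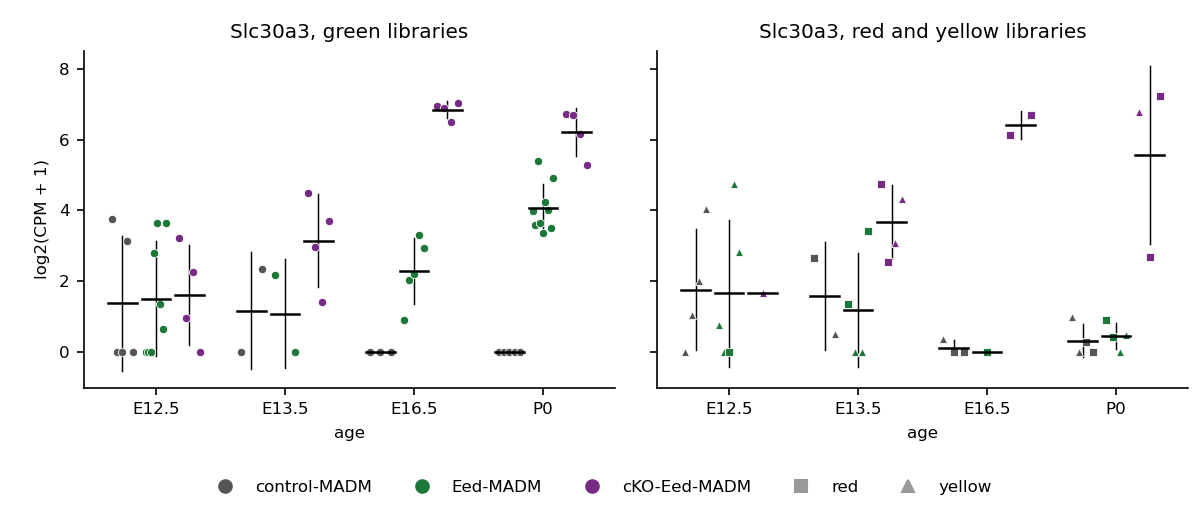
Slc30a3 in each library used, as log2(CPM + 1), by age and paradigm, for green libraries and for red (squares) and yellow (triangles) libraries; bars give the mean and lines the SD. At E16.5 and P0 all green controls sit at 0 while green cKO-Eed-MADM libraries sit between 37.7 and 131 CPM, and 1 red P0 cKO-Eed-MADM library at 5.41 CPM stands below the others of its group.

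Red and yellow libraries, which did not enter the choice of genes, gave a test of the same contrast between cKO-Eed-MADM and control-MADM. At E16.5 the red controls had 0 and 0 CPM of Slc30a3, the yellow control 0.304 CPM (1 read), and the red cKO-Eed-MADM libraries 69.3 and 103 CPM. Slc30a3 rose in cKO-Eed-MADM in the quasi-likelihood test of edgeR (log2 difference 11.65 ± 0.77, adjusted p = 1.19e-06, Benjamini-Hochberg over 13121 genes). Since 1 control read is the denominator, the ratio of pooled rates was 1033 with an exact 95% counting interval from 185 to 40837, which covers counting error only. Both mutant libraries at E16.5 were red, and with color as a term the comparison rests on the 2 red controls. In this contrast 7.69% of all genes tested passed the threshold of 0.05 and 5.69% did so in the upward direction. Of the 6 transporters tested 3 rose, namely Slc30a3, Slc32a1 and Slc18a3, and none fell.

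At P0 the red controls had 0.222 and 0 CPM of Slc30a3 and the yellow controls 0.988 and 0 CPM. The red cKO-Eed-MADM libraries had 5.41 and 150 CPM and the yellow one 109 CPM. The 3 mutant libraries lay above the 4 controls, with a ratio of means of 291, but the difference did not pass the test (log2 difference 8.37 ± 1.52, edgeR adjusted p = 0.0756). The value of 5.41 CPM belonged to the library labelled P0 cKO-Eed-MADM red replicate 1, whose Eed level was that of the controls. Without it the mean was 129 ± 29.3 CPM, the ratio 428, and Slc30a3 rose (log2 difference 8.68 ± 1.09, edgeR adjusted p = 0.0151). With that library 0 of 6 transporters tested passed at P0, where 0.149% of all genes did, while 2 (Slc30a3 and Slc17a6) had an unadjusted p under 0.05, as had 9.72% of all genes, and DESeq2 called 1, with 3.13% of all genes. Without it 1 of 6 passed, where 0.512% of all genes did.

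At E13.5 the red and yellow controls had 5.32 and 0.422 CPM of Slc30a3 and the cKO-Eed-MADM libraries 26.1, 4.79, 7.53 and 19.2 CPM. The groups overlapped by 1 library, and the difference did not pass the test (2.67 ± 1.22, edgeR adjusted p = 0.321). None of the 4 transporters tested passed at this age, where 2.53% of all genes did, while 2 (Slc17a6 and Slc17a7) had an unadjusted p under 0.05, as had 15.8% of all genes, and DESeq2 called 1, with 6.83% of all genes. At E12.5 the only cKO-Eed-MADM library had 2.16 CPM, within the 0 to 15.3 CPM of the 4 controls. None of 6 transporters passed there by edgeR, nor did Slc17a6 and Slc17a7 by DESeq2, which gave the others no adjusted p, and 0.0455% of all genes passed by edgeR and 0.678% by DESeq2. Slc5a7 alone had an unadjusted p under 0.05, as had 7.77% of all genes.

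At P0, cells of the mosaic that kept at least 1 copy of Eed had Slc30a3 levels in the range of the controls, as had the only red library used at E16.5. No yellow library was left at E16.5, so cells with 1 copy were not measured at that age. Red Eed-MADM cells (+/+) had 0 CPM at E16.5 and 0.882 and 0.357 CPM at P0, and yellow cells (+/-) had 0 and 0.392 CPM at P0. At the earlier ages the values were less even. At E13.5 red cells had 1.58 and 9.63 CPM, 1 of them above both controls, and yellow cells 0 and 0 CPM, below both. At E12.5 the 4 yellow libraries ranged from 0 to 25.7 CPM with a mean of 8.1 CPM, and the red one had 0 CPM. No transporter passed the edgeR test in red or yellow Eed-MADM against control-MADM at any age with a library. The share of all genes that passed was 0.0114% in yellow cells at E12.5 and 0 in the other comparisons, of which those at E13.5 and P0 had 912 and 528 genes in yellow cells with an unadjusted p under 0.05, and 500 and 181 in red cells. The transporters with such a p were Slc17a6 in yellow cells at E12.5, where 8.38% of all genes had one, and Slc30a3, Slc17a6 and Slc17a7 in yellow cells at E13.5, where 6.89% had one. The only Eed -/- cells of the mosaic are green, so the Eed-MADM levels above have no counterpart in another color.

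Between ages, Slc30a3 had opposite signs of change in the 2 paradigms. In red and yellow controls it changed from E13.5 to P0 by -3.10 ± 1.39 on the log2 scale (edgeR adjusted p = 0.227) and in cKO-Eed-MADM by 2.64 ± 0.99 (adjusted p = 0.0992). The difference between these changes was 5.74 ± 1.71 (adjusted p = 0.091) with all libraries, where 2.07% of all genes passed. Without the P0 cKO-Eed-MADM red replicate 1 it was 6.11 ± 1.46 (edgeR adjusted p = 0.0222), where 3.64% of all genes passed, and the rise within cKO-Eed-MADM passed too (3.17 ± 0.85, adjusted p = 0.0205), where 10.3% of all genes passed. In green cells the fitted change was -6.48 ± 1.75 in control-MADM and 2.94 ± 0.68 in cKO-Eed-MADM, where 26.3% and 35.7% of all genes were called, and 9.7% for the difference. The green control-MADM value rests on P0 controls with no read and is not a bound.

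Slc17a6 (VGLUT2; ENSMUSG00000030500.6; chromosome 7, 51622006 to 51671119, plus strand) was the most abundant of the 8 genes per kilobase of exon in green controls at E12.5, E16.5 and P0. In green E16.5 libraries the controls had 97.7, 84.1 and 82.6 CPM and the cKO-Eed-MADM libraries 157, 134, 119 and 152 CPM, without overlap. The 5 Eed-MADM libraries had 104, 82.4, 80.3, 107 and 111 CPM, which overlapped with the controls. The mean of cKO-Eed-MADM (140 ± 17.4 CPM) was 1.59 times that of control-MADM and 1.45 times that of Eed-MADM, with fitted log2 differences of 0.69 ± 0.17 and 0.57 ± 0.15. At E13.5 the green controls had 57.4 and 97.9 CPM and cKO-Eed-MADM 122, 154, 120 and 183 CPM, again without overlap.

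At P0 this order changed. The green controls had 72.8, 60.8, 67.7, 58.9 and 54.9 CPM of Slc17a6, and the cKO-Eed-MADM libraries, with 111, 75.0, 71.4 and 33.4 CPM, lay on both sides of them. The highest green level at P0 was that of Eed-MADM, whose 9 libraries ranged from 68.1 to 139 CPM with a median of 103 CPM. Their fitted difference from control-MADM was 0.68 ± 0.20 on the log2 scale.

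In red and yellow libraries no difference of Slc17a6 between cKO-Eed-MADM and control-MADM passed the test. At E13.5 the controls had 100 and 76.4 CPM and the mutants 148, 210, 149 and 136 CPM, without overlap (0.85 ± 0.21, edgeR adjusted p = 0.0649). At E16.5 the values were 111, 93.9 and 50.5 CPM against 139 and 121 CPM (0.34 ± 0.18, adjusted p = 0.332 by edgeR). At P0 they were 71.2, 30.1, 61.4 and 35.5 CPM against 84.1, 96.9 and 188 CPM (1.30 ± 0.45, edgeR adjusted p = 0.36). The mutant libraries lay above the controls used at all 3 ages. The share of all genes without overlap was not counted, so this is a description. An E13.5 yellow control left out for depth held 965 CPM (without TMM). With all libraries the E13.5 difference turned to -0.19.

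Slc17a7 (VGLUT1; ENSMUSG00000070570.5; chromosome 7, 45163949 to 45176142, plus strand) fell from E13.5 to P0. At E12.5, when cells were collected in another way, green means were lower than at E13.5. They were 21.4 ± 18.6 CPM in control-MADM and 18.6 ± 5.85 CPM in cKO-Eed-MADM. In green controls Slc17a7 went from 174 and 123 CPM at E13.5 to 52.9, 20.9 and 54.0 CPM at E16.5, and to between 4.12 and 13.1 CPM at P0. Green cKO-Eed-MADM libraries went from 154, 165, 149 and 129 CPM to 31.6, 17.9, 22.6 and 6.65 CPM and then to 4.33, 8.64, 0 and 4.82 CPM. The libraries of both paradigms overlapped at each of these ages. The decrease from E13.5 to P0 was tested in red and yellow libraries. Slc17a7 fell in control-MADM (-2.53 ± 0.70 on the log2 scale, edgeR adjusted p = 0.0342) and in cKO-Eed-MADM (-4.33 ± 0.76, adjusted p = 0.000889). Of the 6 transporters tested it was the only one to pass in control-MADM, where 5.52% of all genes passed. The difference between both changes did not pass (-1.80 ± 1.00, edgeR adjusted p = 0.451). Without the doubtful P0 library, where 9.26% of all genes passed in control-MADM, the changes were -2.47 ± 0.48 (adjusted p = 0.00196) and -3.75 ± 0.60 (edgeR adjusted p = 0.00032).

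Between paradigms, red and yellow libraries had Slc17a7 levels of 79.8 and 72.6 CPM in control-MADM and 167, 106, 84.1 and 114 CPM in cKO-Eed-MADM at E13.5, without overlap (0.59 ± 0.23, edgeR adjusted p = 0.223). At E16.5 the controls had 46.5, 41.6 and 60 CPM and the mutants 43.1 and 24.5 CPM. At P0 the controls had 8.23, 5.44, 12.8 and 35.0 CPM and the mutants 0, 7.14 and 11.3 CPM. The libraries overlapped at both later ages.

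The share of Slc17a7 in the summed level per kilobase of Slc17a6 and Slc17a7 describes the balance of both glutamate carriers. In green controls it went from 65.5 ± 13.7% at E13.5 over 31.5 ± 10.3% to 12.1 ± 4.46% at P0. In green cKO-Eed-MADM it was 51.0 ± 6.68%, 12.2 ± 5.76% and 6.68 ± 5.83%, and in green Eed-MADM 54.5 ± 1.01%, 26.9 ± 9.13% and 10.9 ± 4.18%. Red and yellow libraries had 46.5 ± 3.16%, 38.2 ± 14.0% and 23.2 ± 17.9% in control-MADM and 42.1 ± 9.0%, 20.3 ± 4.83% and 4.18 ± 3.67% in cKO-Eed-MADM. The share was lower at P0 than at E13.5 in each paradigm and color set. At E12.5 it was 21.4 ± 11.4% in green controls and 26.8 ± 15.2% in green cKO-Eed-MADM. The mean share was thus highest at E13.5 in both.

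**Figure D2:**
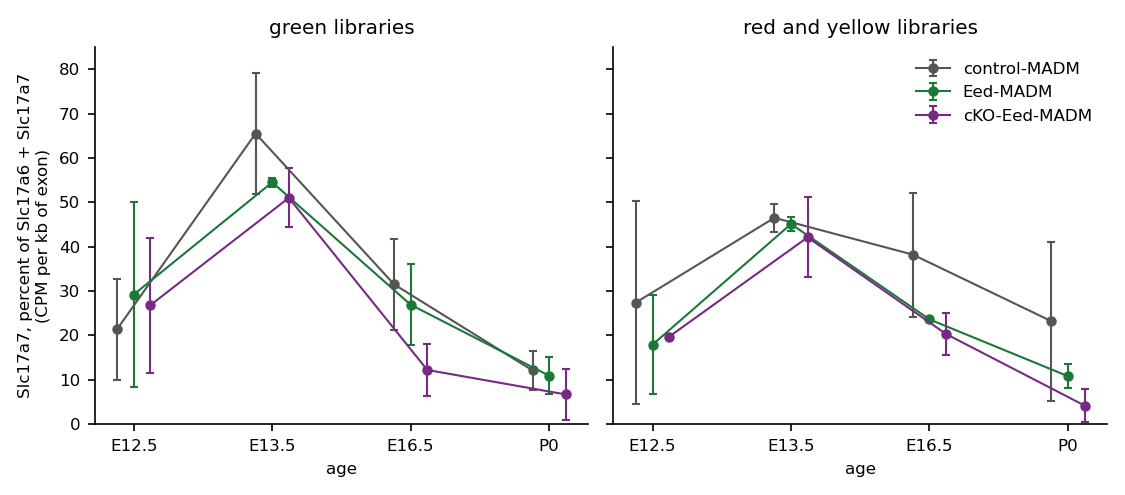
Share of Slc17a7 in the summed level per kilobase of Slc17a6 and Slc17a7, in percent, by age and paradigm, for green libraries and for red and yellow libraries; points give the mean of a group, error bars the SD over libraries, and lines join the ages of a paradigm. The means of green controls fall from 65.5% at E13.5 to 12.1% at P0, and those of green cKO-Eed-MADM from 51.0% to 6.68%. At E12.5 these means are 21.4% and 26.8%.

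Slc17a8 (VGLUT3; ENSMUSG00000019935.16; chromosome 10, 89574020 to 89621253, minus strand), which marks a minor set of glutamate-releasing neurons, stayed near 0. Its highest green group mean was 0.838 ± 0.95 CPM, in cKO-Eed-MADM at P0. The highest mean of any group was 2.3 CPM in red and yellow E13.5 controls, with 2.07 and 2.53 CPM. The gene did not reach the minimum mean count of the fits at any age, so it was not tested.

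Slc32a1 (VGAT; ENSMUSG00000037771.11; chromosome 2, 158610767 to 158615748, plus strand) was near 0 in green controls at E13.5 and in controls of every color at E16.5. It was higher in cKO-Eed-MADM at E16.5. The antisense gene Gm14205 shares 697 of the exonic bases of Slc32a1 (24.92%). Without strand, reads on these bases fall on several genes and were not counted, so the level of Slc32a1 may be underestimated. At E12.5 the green controls had 3.94, 0, 11.4, 11.2 and 0 CPM, the Eed-MADM libraries ranged from 0 to 6.39 CPM with a median of 1.73 CPM, and the cKO-Eed-MADM libraries lay between 2.99 and 3.81 CPM, within the range of the controls. The red and yellow controls of that age spread from 0 to 34.1 CPM around the 5.93 CPM of the single cKO-Eed-MADM library. At E13.5 the green controls had 0.416 and 0.311 CPM and the cKO-Eed-MADM libraries 0.222, 0.208, 0.559 and 1.38 CPM. The red and yellow controls of E13.5 had 2.95 and 0 CPM, and the cKO-Eed-MADM libraries 0.198, 0.959, 2.15 and 0.198 CPM. At E16.5 none of the 3 green controls held a read, the Eed-MADM libraries had 0.442, 0.958, 0.166, 0.594 and 0 CPM, and the cKO-Eed-MADM libraries 6.69, 20.3, 13.8 and 20.9 CPM. The cKO-Eed-MADM mean of 15.4 ± 6.67 CPM was at least 77.4-fold higher than control-MADM and 35.8 times that of Eed-MADM. No cKO-Eed-MADM library overlapped with either group.

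By P0 Slc32a1 was present in all paradigms. The green controls had 1.33, 5.89, 7.28, 4.33 and 8.24 CPM, and Eed-MADM ranged from 2.02 to 8.17 CPM with a median of 4.97 CPM. The cKO-Eed-MADM libraries had 11.0, 21.8, 13.4 and 6.61 CPM, and 3 of these 4 lay above all controls. The ratio of means was 2.44 to control-MADM and 2.69 to Eed-MADM.

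Red and yellow libraries gave the test. At E16.5 the red controls had 0.378 and 0.304 CPM of Slc32a1, the yellow control 0 CPM and the mutants 5.66 and 12.7 CPM, and Slc32a1 rose (4.63 ± 1.05 on the log2 scale, edgeR adjusted p = 0.0128). With 3 reads in the controls, the ratio of pooled rates was 36.9 with an exact 95% counting interval from 12.3 to 182. Only through the mutant libraries did Slc32a1 have enough reads for this test. The red Eed-MADM library at E16.5 had 0.189 CPM. At P0 the controls spread from 2.77 to 25.6 CPM, with 3.78 and 17.7 CPM between them, and the mutants had 77.3, 21.6 and 10.4 CPM. The highest of these belonged to the doubtful red replicate 1, and the difference did not pass the test with it (1.28 ± 1.27, edgeR adjusted p = 0.837) or without it (0.35 ± 1.19, adjusted p = 0.947). From E13.5 to P0 Slc32a1 rose in cKO-Eed-MADM (4.98 ± 1.32, edgeR adjusted p = 0.0188), where 10.2% of all genes passed. Without that library the rise was 4.03 ± 1.27 (adjusted p = 0.0469, edgeR). The change in control-MADM was 3.42 ± 1.57 (adjusted p = 0.237), and both changes did not differ by the test (1.56 ± 2.07, edgeR adjusted p = 0.821).

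Gad1 and Gad2, the enzymes that make GABA, moved with Slc32a1 at E16.5. In green libraries Gad1 ranged from 0 to 2.92 CPM in control-MADM and from 47.9 to 55.2 CPM in cKO-Eed-MADM, and Gad2 from 1.98 to 2.75 CPM and from 28.8 to 66.3 CPM. In red and yellow libraries Gad1 rose by 4.67 ± 0.73 and Gad2 by 3.94 ± 0.49 on the log2 scale (edgeR adjusted p = 0.00119 and 0.000176). The summed level of 9 interneuron markers, which include both enzymes, was 68.7 to 198 CPM in green E16.5 controls, 176 to 300 CPM in Eed-MADM and 326 to 545 CPM in cKO-Eed-MADM. Of the 8 markers tested, 5 rose in red and yellow cKO-Eed-MADM at E16.5, where 5.69% of all genes rose. At P0 the same sum went the other way in green cells, with 417 to 980 CPM in control-MADM and 221 to 311 CPM in cKO-Eed-MADM, while 3 of 4 mutant libraries had more Slc32a1 than any control. The doubtful red P0 library had an interneuron sum of 2642 CPM, where the other libraries of its group had 208 and 294 CPM. The part of interneurons in these levels was not tested.

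**Figure D3:**
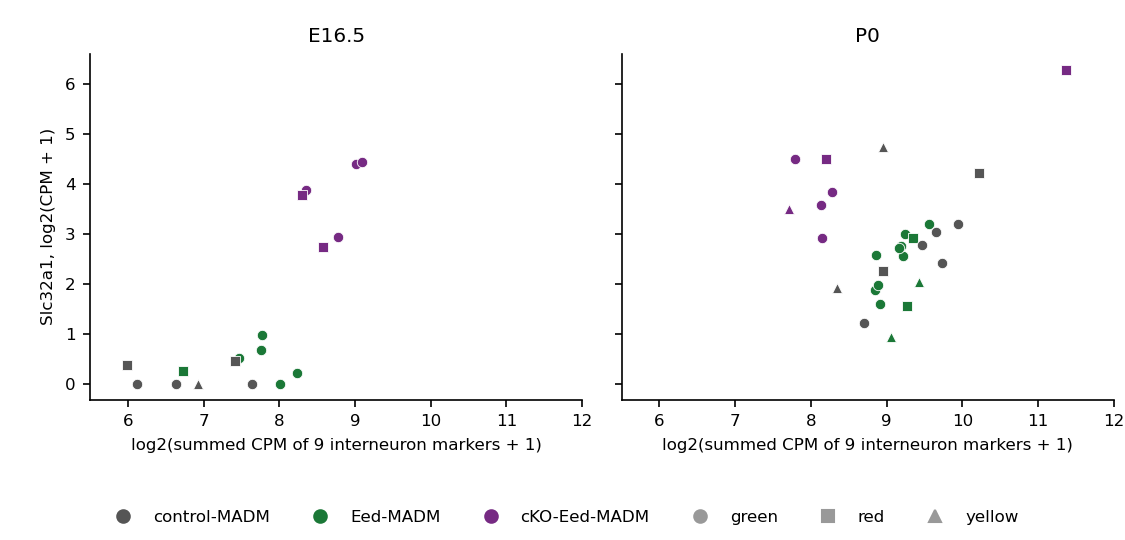
Slc32a1 against the summed level of 9 interneuron markers in each library, both as log2(CPM + 1), at E16.5 and P0, with the paradigm as color and circles for green, squares for red and triangles for yellow cells. At E16.5 the cKO-Eed-MADM libraries have the highest values on both axes, and at P0 the green ones lie at lower marker sums (221 to 311 CPM) than the green controls (417 to 980 CPM).

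Slc18a2 (VMAT2; ENSMUSG00000025094.7; chromosome 19, 59260896 to 59296012, plus strand) was detected in each paradigm and age. In green cells of E12.5 its mean was 15.3 ± 5.63 CPM in control-MADM, 13.9 ± 6.0 CPM in Eed-MADM and 16 ± 3.43 CPM in cKO-Eed-MADM. At the later ages green group means lay between 2.52 and 7.3 CPM. In red and yellow libraries the mutants lay above the controls at E13.5, with 8.31, 6.39, 6.45 and 5.34 CPM against 3.25 and 0.845 CPM (1.83 ± 1.00, edgeR adjusted p = 0.416). They did so at E16.5 too, with 8.0 and 7.87 CPM against 2.84, 0.912 and 3.65 CPM (2.02 ± 0.80, edgeR adjusted p = 0.163). At P0 the groups overlapped, with 4.0 to 14.5 CPM in the controls and 0, 6.12 and 10.7 CPM in the mutants. None of these differences passed the test.

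Slc18a3 (VAChT; ENSMUSG00000100241.1; chromosome 14, 32462438 to 32464850, minus strand) lies within the gene of choline acetyltransferase, Chat, without sharing exonic bases with it. At E16.5 the 3 green controls held no read, 4 of 5 Eed-MADM libraries had 0 and 1 had 0.198 CPM, and the cKO-Eed-MADM libraries had 0, 0.683, 3.12 and 6.44 CPM. The mutant mean of 2.56 ± 2.91 CPM was at least 12.8-fold higher than control-MADM, with 52 reads in all. At P0 the green controls had 0.995, 0, 0, 0 and 0 CPM and the cKO-Eed-MADM libraries 3.79, 20.7, 6.4 and 0 CPM. Eed-MADM ranged from 0 to 5.39 CPM with a median of 1.56 CPM, and 6 of its 9 libraries lay above the highest control.

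In red and yellow libraries of E16.5 the controls had 0, 0 and 0 CPM of Slc18a3 and the mutants 4.49 and 8.05 CPM. Slc18a3 rose in the test (7.87 ± 1.65 on the log2 scale, edgeR adjusted p = 0.00958) and was at least 24.8-fold higher, with 68 reads in both mutant libraries. The fitted value rests on a control group with no reads and is not a bound. Only through the mutant libraries did Slc18a3 have enough reads for this test. The red Eed-MADM library had 0.378 CPM. At P0 the controls had 0.445, 2.72, 2.96 and 0 CPM and the mutants 6.76 CPM (30 reads) and 9.3 CPM (33 reads), with the highest level, from 81 reads, in red replicate 2. The mean was 7.09 times that of the controls, without overlap. This difference did not pass the test (2.76 ± 1.63, edgeR adjusted p = 0.66).

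Slc5a7 (CHT1; ENSMUSG00000023945.6; chromosome 17, 54273590 to 54299034, minus strand), which takes up choline for the synthesis of acetylcholine, held few reads. At E13.5 cKO-Eed-MADM held 17 reads against 1 in control-MADM in green cells, and 2 against 9 in red and yellow cells. At E16.5 none of the green control or cKO-Eed-MADM libraries held a read. At P0 the green controls held no read either. Green P0 cKO-Eed-MADM held 11 reads, with a mean of 0.561 ± 0.576 CPM, at least 5.35-fold higher. Green P0 Eed-MADM held 22 reads, 18 of them in replicate 8, at least 4.04-fold higher. None of the 3 red and yellow cKO-Eed-MADM libraries at P0 held a read. The highest value, 6.47 CPM, came from the single E12.5 yellow cKO-Eed-MADM library (3.76 ± 1.76, edgeR adjusted p = 0.636). After E12.5 its mean count was too low for a test.

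**Figure D4:**
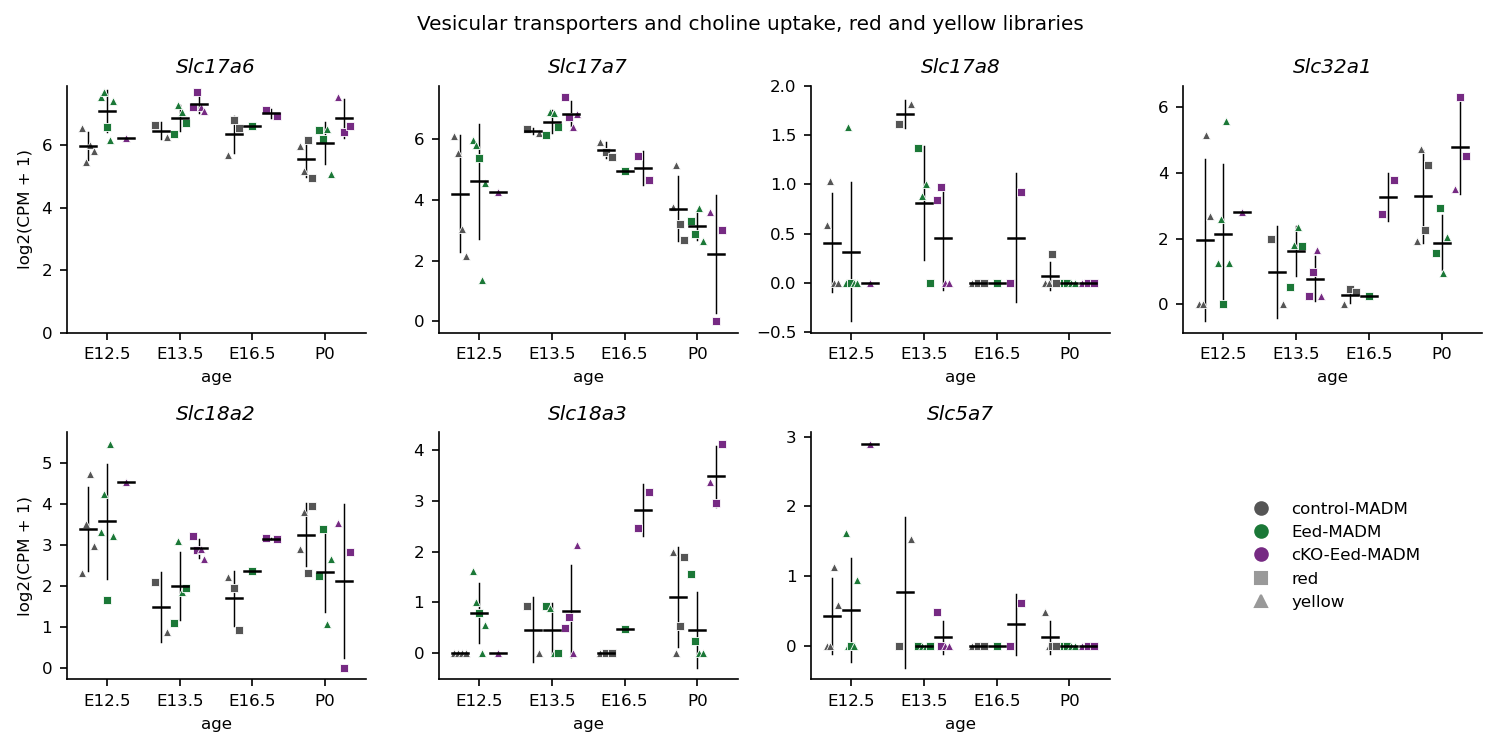
The other 7 genes, without Slc30a3, in each red (squares) and yellow (triangles) library used, as log2(CPM + 1), by age and paradigm; bars give the mean and lines the SD. At E16.5 both cKO-Eed-MADM libraries lie above all controls for Slc32a1 and Slc18a3, and Slc17a7 is lower at P0 than at E13.5 in both paradigms.

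Seen together in green cells, the number of genes with a read was lowest in E16.5 controls. In the 3 green E16.5 controls 3 of the 8 genes (Slc17a6, Slc17a7 and Slc18a2) had a read, against 6 of 8 in the 4 cKO-Eed-MADM and 8 of 8 in the 5 Eed-MADM libraries. A mean of at least 1 CPM was reached by 3, 6 and 4 genes in this order. In Eed-MADM, Slc17a8, Slc18a3 and Slc5a7 held only 2, 1 and 2 reads in all. The share of all genes with a read was not counted, so these numbers are a description. In green P0 controls the order per kilobase of exon was Slc17a6 with a mean of 11.7 CPM per kilobase, Slc32a1 with 1.93, Slc17a7 with 1.63, Slc18a2 with 0.804, Slc18a3 with 0.0824 and Slc17a8 with 0.0734, while Slc30a3 and Slc5a7 had no read. Slc17a6, at 10.2 CPM per kilobase or more in each library, lay apart from the rest, while the ranges of Slc32a1 (0.476 to 2.95), Slc17a7 (0.764 to 2.43) and Slc18a2 (0.237 to 1.55) overlapped. In green E16.5 cKO-Eed-MADM Slc30a3 came first, with 40.6 CPM per kilobase against 26.0 for Slc17a6.

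Counted over the green fits, 3 of the 5 transporters tested were called higher in cKO-Eed-MADM than in control-MADM at E16.5 (Slc30a3, Slc17a6 and Slc32a1), where 8.58% of all genes were called in either direction and 6.16% were called higher. The same 3 were called against Eed-MADM, where 7.04% were. At P0 the called ones were Slc30a3 and Slc18a3 of 6 tested against control-MADM, where 24.2% of all genes were called, and Slc30a3 and Slc32a1 against Eed-MADM, where 19.5% were. Slc30a3 was the only transporter called in green Eed-MADM against control-MADM, at E16.5 (0.255% of all genes) and at P0 (1.75%). At E13.5 none of 4 was called, where 0.0372% of all genes were called in cKO-Eed-MADM against control-MADM, 0.0223% against Eed-MADM, and 0 in Eed-MADM (824 at an unadjusted p under 0.05). At E12.5 none of 7 transporters and none of all genes was called by edgeR (685 genes at an unadjusted p under 0.05 for Eed-MADM, 1282 for cKO-Eed-MADM). These counts use the values that chose the genes and are a description only.

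**Figure D5:**
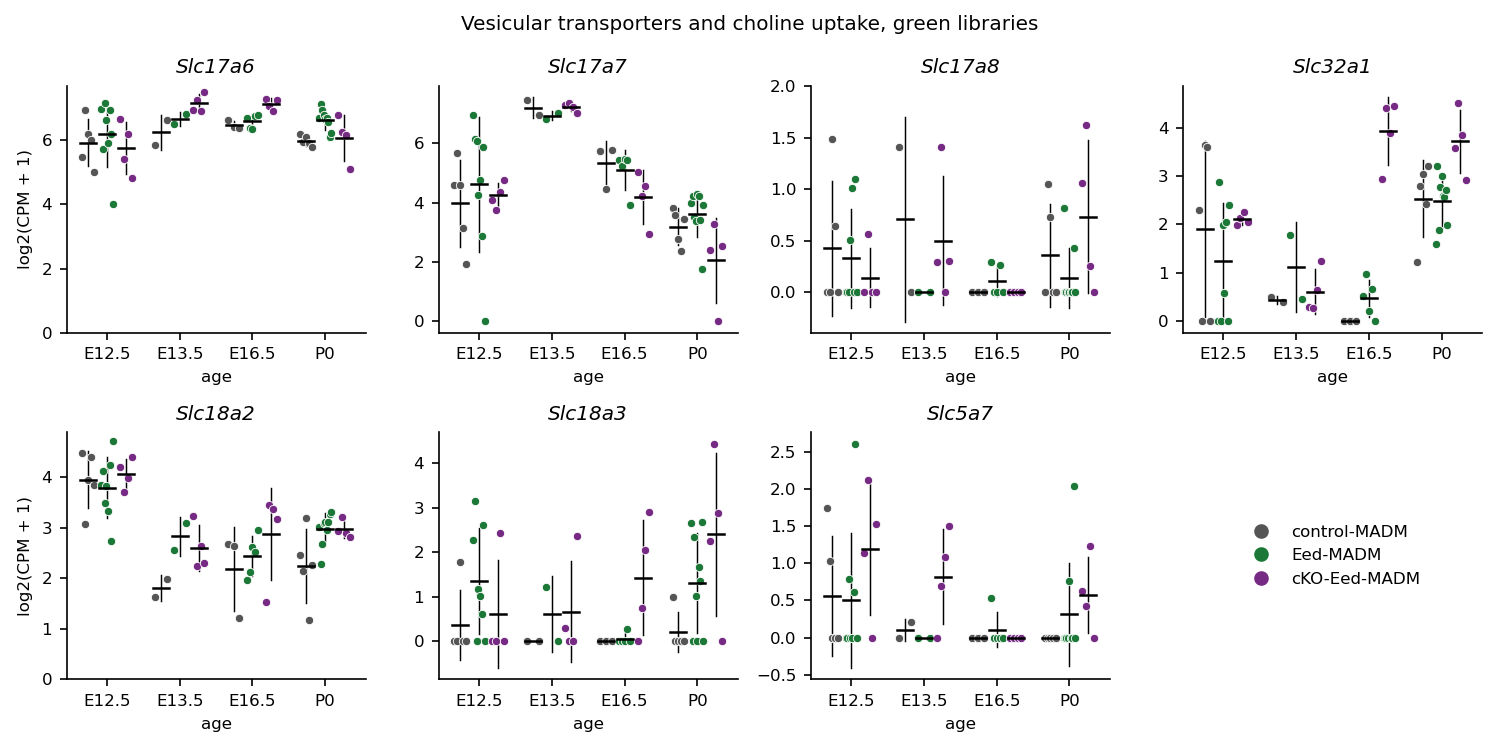
The other 7 genes, without Slc30a3, in each green library used, as log2(CPM + 1), by age and paradigm; bars give the mean and lines the SD. Slc32a1 is at 0 in the E16.5 controls, Slc17a7 falls from E13.5 to P0 in each paradigm, and Slc17a8 and Slc5a7 stay near 0.

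The surrounding genes of transmitter handling were counted in the red and yellow contrast of cKO-Eed-MADM against control-MADM at E16.5. Over all genes tested there, 5.69% rose and 7.69% passed in either direction. Of the 23 tested genes for other zinc transporters and zinc binding, none rose and 1 fell, Slc30a10 (-1.29 ± 0.26, edgeR adjusted p = 0.00654), a zinc and manganese exporter. The median log2 difference of this list was -0.05. Of 16 tested genes of glutamate and GABA metabolism and uptake, 9 rose and none fell, with a median of 1.96, where the median over all genes was 0.00. Among them were Gad1, Gad2, the GABA transaminase Abat, the glutamate carriers Slc1a2, Slc1a3 and Slc1a6, the GABA carrier Slc6a11 and the glutamine carrier Slc38a3. Several of them are known from glia, and astrocyte markers summed to 171 to 199 CPM in the mutants against 47.3 to 66.4 CPM in the controls at this age, with 4 of 4 risen, a part that was not tested.

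Of 4 tested cholinergic genes 3 rose, with a median of 3.16, where 5.69% of all genes rose and 7.69% passed in either direction. They were Isl1, a factor of cholinergic and motor neurons (5.36 ± 0.54, edgeR adjusted p = 2.72e-05), the nicotinic receptor subunit Chrna3 (3.64 ± 0.47, adjusted p = 0.000221) and Ache, which breaks down acetylcholine (2.69 ± 0.61, adjusted p = 0.0128). Of 15 tested genes of the synaptic vesicle 4 rose (Snap25, Syn2, Sv2b and Synpr), with a median of 0.29. None of 12 proton pump genes, 3 monoaminergic and glycinergic genes and 2 other members of the SLC17 and SLC18 families passed, with medians of -0.03, 0.22 and 0.10. Markers of Cajal-Retzius cells, early neurons of the cortical surface that use Slc17a6, summed to 229 to 459 CPM in the mutants and 17.6 to 83.1 CPM in the controls, with 4 of 5 risen, and markers of projection neurons to 1882 to 2229 CPM and 3556 to 3957 CPM, with 3 of 5 fallen. Their part in the levels of the transporters was not tested.

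At P0 no gene of these lists passed in red and yellow cells. The lowest adjusted p of each were those of Slc1a2 (2.48 ± 0.44, edgeR adjusted p = 0.0722), Syn2 (1.47 ± 0.34, adjusted p = 0.153), Isl1 (8.18 ± 2.08, adjusted p = 0.215), Slc30a10 (1.57 ± 0.48, adjusted p = 0.293), Slc6a9, a glycine carrier (1.60 ± 0.59, adjusted p = 0.384), the pump subunit Atp6v1f (-0.67 ± 0.31, adjusted p = 0.527) and Slc18b1 (1.17 ± 1.10, adjusted p = 0.83). In green cKO-Eed-MADM at E16.5, 8 of 16 genes of glutamate and GABA handling, 2 of 3 cholinergic genes and 5 of 15 vesicle genes were called higher, where 6.16% of all genes were. In green cells of P0 these numbers were 7 of 17 (with 2 lower), 4 of 4 and 3 of 15, where 14.2% of all genes were called higher and 24.2% in either direction. Of 24 zinc genes 1 was higher and 1 lower, below the share of all genes, and the 3 of 15 vesicle genes were near it. In the same P0 libraries the sum of 7 microglia markers was 132 to 322 CPM in cKO-Eed-MADM and 5.93 to 30.3 CPM in control-MADM, and that of 5 meningeal markers 86.8 to 223 CPM and 8.29 to 14.6 CPM. The part of these cells in the P0 levels of the transporters was not tested.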

How the data were processed

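The authors made bulk Smart-Seq2 libraries of sorted MADM cells and aligned them to mm10 with STAR, keeping uniquely aligned reads. The counts per gene that the authors deposited are those STAR writes, not normalized, in 3 columns per library, 1 unstranded and 1 per strand. The first was taken because 48.68% to 51.42% of stranded reads fell on the first strand. The release of the annotation is not given in the sources, and 53274 of 53379 identifiers matched GENCODE M21 (GRCm38), from which symbols, exon lengths and 1-based coordinates were taken. Reads on no gene or several genes were 13.41% to 40.36% of the uniquely aligned reads in the libraries used and stayed out of library sizes and tests.

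Groups, ages and replicate numbers came from the labels, which name no batch per library. Libraries with under 1000000 uniquely aligned reads or under 60% uniquely aligned reads were left out. Counts were scaled by TMM and fitted by edgeR 4.0.16 (quasi-likelihood F test, R 4.3.3, limma 3.58.1), green and red with yellow apart, all paradigms of an age in one fit, and color as a term for red and yellow, except at E12.5. Genes needed a mean count over 1 at E12.5 and over 10 later, and p-values were Benjamini-Hochberg adjusted over all genes tested, with a threshold of 0.05. Ages were compared in one fit of E13.5, E16.5 and P0. p-values measure the spread between pools as labelled. A group with no read was given a floor of 3 counts over the group, and ratios with 1 to 3 reads below have exact 95% counting intervals. PCR copies are not independent molecules, so floors and intervals cover counting error only.

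The transporters (members), the gene lists and the tests were chosen with earlier results of these data known. Named are all 8 members, Eed, up to 3 genes of each list with the lowest adjusted p in red and yellow P0 cells, and by Pearson's r over the means of the 12 green groups the 3 genes (5 for Slc30a3) most like each member. Other genes named for E16.5 were chosen after their values were seen, and some genes that the rule names are not reported here. Promoters are from RefSeq. Alternatives were DESeq2 1.42.0 with its size factors, those size factors in edgeR, other filters, all libraries, 2 groups only, 1 strand, the replicate number as a block, no color term, red or yellow libraries alone, CPM without TMM and leaving out each library. The test was checked on simulated counts. Values were summarised in Python 3.11.15 (numpy 2.4.6, pandas 2.3.3, matplotlib 3.10.9).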

Additional observations from a re-analysis of the deposited data

Results flagged for a closer look

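In 69 combinations of a gene and a group of 4 to 10 libraries, the highest or lowest library was compared with its neighbours by Dixon's criterion, and 5 stood apart, where chance flags about 1 in 20 groups. Slc17a7 was 14.1 CPM in green E16.5 Eed-MADM replicate 5, where the next lowest had 36.4 CPM. Slc32a1 was 46.7 CPM in E12.5 Eed-MADM yellow replicate 4, with 5.01 CPM in the next, and 34.1 CPM in E12.5 control-MADM yellow replicate 3, with 5.42 CPM in the next. Slc18a3 was 4.35 CPM in green E12.5 cKO-Eed-MADM replicate 4, with 0 CPM in the other three, and 4.15 CPM in green E13.5 cKO-Eed-MADM replicate 5, with 0.222 CPM in the next.

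The fitted change of Slc30a3 from E13.5 to P0 differed between cKO-Eed-MADM and control-MADM by 9.42 ± 1.79 on the log2 scale in green libraries. These libraries chose the gene, and their P0 controls held no read, so this is no test and no measured size. In red and yellow libraries the difference did not pass the test with all libraries. Without P0 cKO-Eed-MADM red replicate 1, an alternative chosen after seeing the data, it was 6.11 ± 1.46 (edgeR adjusted p = 0.0222). Among the libraries below the depth limits that held at least 1000000 reads on genes, 1 had a transporter well above the controls. In P0 cKO-Eed-MADM yellow replicate 1, with 55.9% uniquely aligned reads and 4732515 reads on genes, Slc32a1 was 73.1 CPM (346 reads, CPM without TMM), above the 25.6 CPM of the highest red or yellow P0 control. The same library held 0 reads of Slc30a3 and of Slc17a7 and 65.5 CPM of Slc17a6. With 967734 reads on genes and 16.73% uniquely aligned reads, E13.5 control-MADM yellow replicate 2, itself a control, had 965 CPM of Slc17a6 (934 reads) and 298 CPM of Slc17a7 (288 reads), against 76.4 to 100 and 72.6 to 79.8 CPM in the red and yellow E13.5 controls that were used.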

How the results depend on the processing

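Counts of transporters called moved by over 1.5 times as follows. With DESeq2 they went from 1 to 2 in green P0 Eed-MADM and from 0 to 1 in red and yellow cKO-Eed-MADM at E13.5, at P0 and in the difference of age changes. Without a filter on low counts they went from 3 to 5 in green E16.5 cKO-Eed-MADM against either group, and from 0 to 1 in the same 3 red and yellow comparisons. With all libraries they went from 0 to 1 in green E13.5 Eed-MADM and from 1 to 2 in green P0 Eed-MADM, and with only the 2 groups compared from 1 to 0 at E16.5 and from 1 to 2 at P0. On 1 strand they went from 2 to 1 in green P0 cKO-Eed-MADM, from 3 to 1 in red and yellow E16.5 and from 0 to 1 at P0. Without the color term they went from 0 to 1 in red and yellow P0 and from 1 to 0 in the age change of control-MADM.

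Leaving out 1 library, the counts ranged from 0 to 1 in green E16.5 Eed-MADM (0 without any 1 of the 3 controls), from 1 to 3 in green P0 cKO-Eed-MADM against control-MADM (1 without cKO-Eed-MADM replicate 2), from 1 to 3 in red and yellow E16.5 (1 without cKO-Eed-MADM red replicate 2, where Slc32a1 and Slc18a3 fell under the minimum mean count) and from 0 to 1 in red and yellow P0. The age difference in red and yellow cells had 1 call without cKO-Eed-MADM red replicate 1, an alternative chosen after seeing the data. The difference of Slc30a3 between green E13.5 Eed-MADM and control-MADM, -0.24 on the log2 scale, turned to 3.74 with all libraries, 0.17 on the other strand, 1.49 with the replicate block, and, leaving out 1 library, ranged from -6.41 (without Eed-MADM replicate 2) to 6.07 (without control-MADM replicate 3), with 0.76 without Eed-MADM replicate 6. That of Slc17a6 in red and yellow E13.5 cKO-Eed-MADM (0.85) turned to -0.19 with all libraries. The cause of these shifts was not tested. Slc30a3 in red and yellow E16.5 cKO-Eed-MADM passed in every alternative run, with log2 differences from 9.59 to 11.89. The mean of Slc18a2 there was 7.79 CPM without TMM.

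The replicate numbers share only a number, since in no set and age did every same-numbered pair correlate over 0.1 (correlations from -0.169 to 0.377). With the number as a block, 4 in place of 2 transporters were called in green P0 cKO-Eed-MADM against Eed-MADM, Slc18a3 (4.51) was no longer called and Slc32a1 (1.73) was called against control-MADM, and in red and yellow E16.5 the count stayed at 3. Depth limits Slc17a8, Slc5a7 and Slc18a3 most, with few or no reads per library.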

Other observations

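The genes whose means over the 12 green groups were most like those of each transporter, by Pearson's r of log2(CPM + 1) among genes that reached 1 CPM in a group, are given as a description, since the groups share libraries and ages. For Slc30a3 they were Tmem159 (0.955), the tachykinin receptor Tacr1 (0.951), the homeobox genes Hoxa10 (0.949) and Hoxa7 (0.946), and Plk5 (0.941). For Slc32a1 they were the semaphorin receptor Plxnc1 (0.965), Map3k1 (0.938) and the ion channel Asic4 (0.923), and for Slc18a3 Cpne7 (0.94), Malt1 (0.935) and She (0.931). For Slc17a6 they were Ubtd2 (0.904), Dixdc1 (0.898) and Aff2 (0.89), and for Slc17a7 Rbbp4 (0.982), Vangl2 (0.966) and 9630028B13Rik (0.957). For Slc18a2 they were Cald1 (0.959), Pdzd8 (0.951) and Dnajc1 (0.951), and for Slc5a7 the lymphoid factor Ikzf1 (0.952), Arl14ep (0.94) and Milr1 (0.933). Among the transporters, r was 0.81 between Slc30a3 and Slc18a3, 0.671 between Slc30a3 and Slc32a1, and -0.767 between Slc17a7 and Slc32a1.

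Beside the lowest of each list, the next genes in red and yellow P0 cells of cKO-Eed-MADM did not pass either. In glutamate and GABA handling Abat was next (log2 difference 1.85 ± 0.39, edgeR adjusted p = 0.107). In the synaptic vesicle they were Snap25 (1.48 ± 0.39, edgeR adjusted p = 0.217) and Syt4 (-1.44 ± 0.39, edgeR adjusted p = 0.225), and among zinc transporters Slc39a9 (-0.92 ± 0.53, edgeR adjusted p = 0.644) and Slc39a6 (0.41 ± 0.24, edgeR adjusted p = 0.646). The pump subunits Atp6v0d1 (-0.57 ± 0.28, edgeR adjusted p = 0.556) and Atp6v1g2 (-0.94 ± 0.48, edgeR adjusted p = 0.579) followed, and Ache (1.85 ± 0.53, edgeR adjusted p = 0.265). Tph2, Ddc, Slc17a9 and Slc17a5 had adjusted p of 0.434, 0.607, 0.866 and 0.956.

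Of the marker lists not described with the transporters, 2 of 4 oligodendrocyte lineage genes and 1 of 2 thalamic genes tested rose in red and yellow E16.5 cKO-Eed-MADM by edgeR. Over all genes tested in this contrast 5.69% rose. None of 6 microglia, 3 meningeal, 2 red blood cell and 5 radial glia genes tested passed, and 0 of 5 endothelial genes had enough reads to be tested.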
